A study of Caenorhabditis elegans with 6 samples.

Results

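The transcriptome of wild-type Caenorhabditis elegans at L1, the larval stage that follows hatching, was described from 2 of the 6 RNA-seq libraries of the series. Both libraries came from untreated whole larvae of the N2 strain, fed E. coli on NGM agar plates, and carry no mutation or transgene. RNA was poly(A)-selected and made into strand-specific libraries, and the study used such libraries to rank genes by expression in its work on DNA repair. The labels do not say whether replicate 1 and replicate 2 came from separate cultures, so the spread between them may be technical. All values below are TPM, that is reads per base of exon, scaled to the same total in each library. A TPM value is a relative level, and in RNA of whole larvae fewer cells of a type and less RNA per cell cannot be told apart. Since the libraries form 1 group, nothing was tested, and each value is given per library or as mean ± SD with n = 2.

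A larva that has just hatched already holds most of its body: intestine, body-wall and pharyngeal muscle, hypodermis, a nervous system and a few germline precursor cells. During L1 it feeds, grows, adds neurons to the ventral cord and prepares the cuticle of the next stage, while gametes, yolk and adult cuticle belong to later stages. Cells that grow put much of their mRNA into ribosomal proteins, and differentiated cells put much of the rest into the machinery of their own type, such as myosin in muscle or digestive proteases in the gut.

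The libraries held 48299740 reads on genes in replicate 1 and 45719093 in replicate 2. The files list 46904 gene identifiers, of which 19889 are protein-coding genes of the nuclear chromosomes. At this depth a count of 0, which allows up to 3 counts, leaves room for 0.0723 TPM in replicate 1 and 0.0784 TPM in replicate 2 at the median exon length of 1107 bases. This limit covers counting error only, because PCR copies and both mates of a pair were counted. A gene with at least 1 TPM in both libraries is called detected below. The authors removed mitochondrial reads, so the 36 mitochondrial gene identifiers had 0 reads and are not counted as silent genes.

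Most protein-coding genes were detected in the larvae, and a small number of them made up much of the mRNA. Of 19889 protein-coding genes, 13993 (70.4%) were detected, 4769 had reads but fell short of 1 TPM in at least 1 library, and 1127 (5.67%) had 0 reads in both libraries. The median protein-coding gene stood at 8.29 TPM in replicate 1 and 8.03 TPM in replicate 2, and the median detected one at a mean of 20.1 TPM. The most populated decade of levels was 10 to 100 TPM, with 7959 genes that took 28.4% of TPM in replicate 1 and 28.1% in replicate 2. Above 1000 TPM there were 136 protein-coding genes, and these took 35.4% and 35.8%. In replicate 1, 404 genes reached 50% of all TPM and 5860 reached 90%, and in replicate 2 the numbers were 389 and 5725. Gene structure differed between these classes of level. Genes above 1000 TPM had a median exon length of 691 bases and 178 bases of intron within their span, while genes between 10 and 100 TPM had 1487 and 1198 bases. Genes with 0 reads had a median of 625 bases of exon, shorter than both, and 222 bases of intron, between the other classes.

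The highest levels belonged to the apparatus of protein synthesis. eef-1A.1, which encodes elongation factor 1 alpha, the protein that brings aminoacyl-tRNA to the ribosome, had the highest mean at 6271 ± 780 TPM (SD, n = 2), from 5720 TPM in replicate 1 and 6823 TPM in replicate 2. It spans 6970026 to 6972003 on the minus strand of chromosome III in WBcel235. Its reads came to 332235 in replicate 1 and 365349 in replicate 2. Among the 30 genes with the highest mean TPM, 25 were cytosolic ribosomal protein genes by symbol, led after rpl-41.2 by rps-25 at 5694 and 4074 TPM, rps-23 at 5074 and 4361 TPM, and rla-1, of the ribosomal stalk, at 3695 and 5448 TPM. The order within the top 30 was loose: rpl-41.2, the shortest of these ribosomal protein genes, had 8963 TPM in replicate 1 and 2862 TPM in replicate 2, and the 30 highest genes of each library shared 19 members. The 100 highest genes shared 95 members. For all 29 pairs of neighbours in the top 30 the ranges of the 2 libraries overlapped, so the order within it is not fixed.

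**Figure D1:**
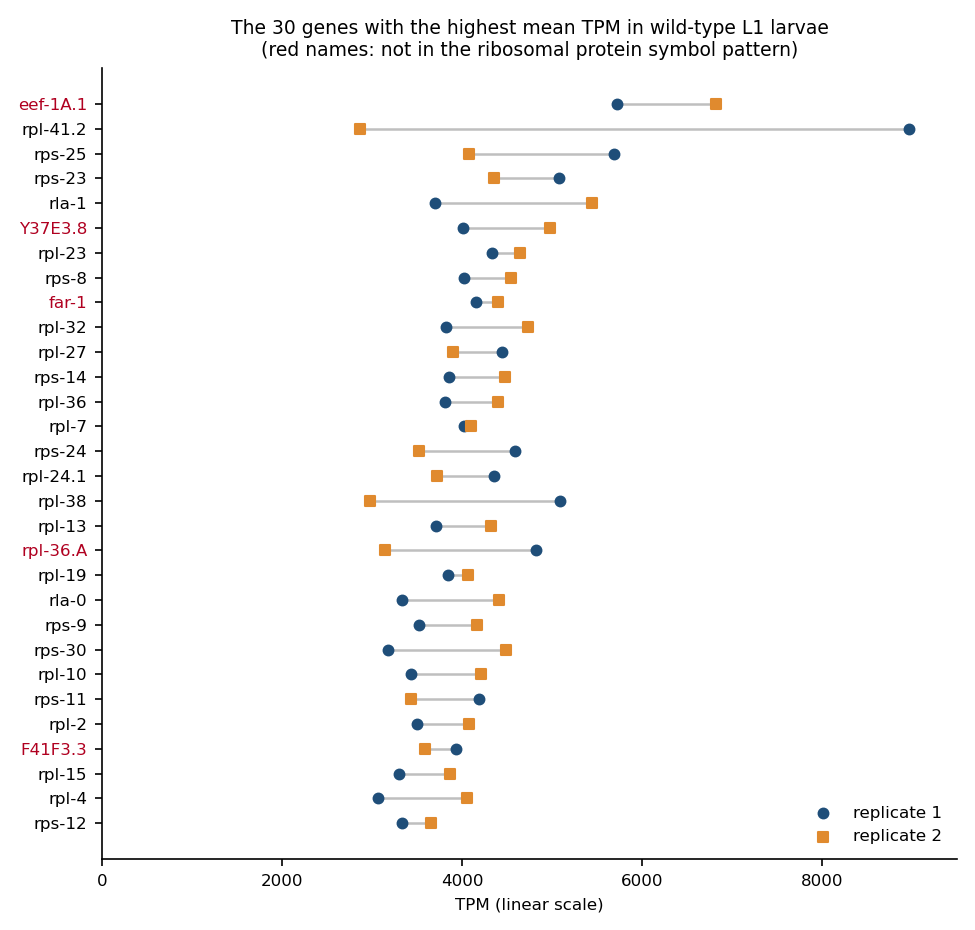
TPM in replicate 1 (circles) and replicate 2 (squares) of the 30 genes with the highest mean, on a linear axis that starts at 0. Red names are the 5 genes outside the ribosomal protein symbol pattern, and rpl-41.2 shows the widest gap, 8963 against 2862 TPM.

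Outside the symbol pattern, 5 genes stood among the 30. Besides eef-1A.1 these were rpl-36.A, a ribosomal protein gene whose symbol ends in a letter, far-1, Y37E3.8 and F41F3.3. far-1 encodes a fatty acid and retinol binding protein of nematodes and had 4154 and 4406 TPM, or 4280 ± 178 TPM (SD, n = 2). Y37E3.8 had 4014 and 4982 TPM. F41F3.3, a gene of 1 exon of 577 bases on chromosome V, had 3932 and 3590 TPM. Genes that carry only a sequence name were not confined to low levels. There were 8993 such protein-coding genes, which took 19.8% of TPM in replicate 1 and 19.1% in replicate 2, and 5779 of them (64.3%) were detected. After Y37E3.8 and F41F3.3 the highest were C37A2.7 at 2767 ± 85.5 TPM, Y82E9BR.3 at 2731 ± 122.5 TPM and W01D2.1 at 2590 ± 47.1 TPM (SD, n = 2). What these sequence-named genes encode was not examined, and they were counted in no family, because families were taken by symbol. The family counts and shares, that of the ribosomal proteins among them, can therefore miss members.

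The 28 gene families taken by symbol held 3945 protein-coding genes and 43.4% of TPM in replicate 1 and 43.8% in replicate 2, so 15944 genes outside them held 53.5% and 53.4%. Cytosolic ribosomal proteins, the structural proteins of the ribosome, took 24.1% ± 0.103 of TPM (SD, n = 2) through the 80 genes matched by symbol. As shares of reads, with no division by length, they took 11.13% in replicate 1 and 11.5% in replicate 2. Of the 80, 79 were detected, and the median member stood at 3173 TPM. The 2 lowest members lay far below the rest: rpl-37 had 42.5 and 25.7 TPM, and rpl-42 had 0.839 TPM in replicate 1 and 0 reads in replicate 2. Since reads with a low mapping quality were dropped, genes with near-identical copies are undercounted, and low values of duplicated ribosomal protein genes are uncertain for that reason.

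Other families of protein synthesis and folding followed at a far lower share. The 43 translation factors, which start and extend the protein chain, were all detected and took 1.90% ± 0.143 (SD, n = 2). After eef-1A.1 came eef-1A.2 at 2023 and 2459 TPM and eef-2, the translocation factor, at 1867 and 2123 TPM, while ife-5, a cap-binding protein, was the lowest at 4.66 and 4.75 TPM. The 32 aminoacyl-tRNA synthetases, which charge tRNAs, took 0.239% ± 0.00146 and were all detected, led by sars-1 at 241 and 246 TPM. Mitochondrial ribosomal proteins, 66 genes and all detected, took 0.395% ± 0.0219, and their highest gene, mrps-11, had 135 and 117 TPM. The median gene of the cytosolic ribosome thus stood at 3173 TPM and that of the mitochondrial ribosome at 56.9 TPM. Chaperones and protein disulfide isomerases, which fold new proteins, were the second family of all with 2.47% ± 0.0440, and all 54 genes were detected. Their highest members were the small heat shock genes hsp-16.2 and hsp-16.41, described with the stress genes, and hsp-90, the cytosolic HSP90, at 2009 and 2181 TPM. The lowest, cyn-2, a cyclophilin, had 2.12 and 1.11 TPM. The proteasome and polyubiquitin genes, which mark and degrade proteins, took 0.676% ± 0.0835, and ubq-2, a ubiquitin fusion to a ribosomal protein, made up 51.2% of this with 3037 and 3881 TPM. Splicing and RNA-binding factors took 0.573% ± 0.000542, and all 55 genes were detected, with hrpa-1 highest at 378 and 374 TPM.

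Energy supply held a share near that of the chaperones. The nuclear respiratory chain and ATP synthase genes matched by symbol took 2.13% ± 0.0892 (SD, n = 2), and 73 of 77 were detected. Among these 77, ant-1.1, the ADP/ATP carrier of the inner membrane, was highest at 2492 and 3213 TPM. Next among them were atp-2 at 1179 and 1355 TPM and atp-1 at 884 and 1038 TPM, the catalytic and the alpha subunit of ATP synthase. At the other end, ant-1.4, another carrier of the same family, had 0.0512 and 0.111 TPM. Glycolytic enzymes took 0.284% ± 0.0192, led by the aldolase aldo-2 at 431 and 484 TPM. The vacuolar ATPase, the proton pump of lysosomes and of the gut, took 0.775% ± 0.0415 through 20 detected genes. Its membrane subunit gene vha-2 had 1235 and 1410 TPM, and vha-18 was lowest at 2.18 and 3.96 TPM. Fatty acid enzymes and lipid-binding proteins took 1.11% ± 0.0190, of which far-1 alone made up 38.6%, followed by acdh-1, an acyl-CoA dehydrogenase, at 520 and 489 TPM.

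**Figure D2:**
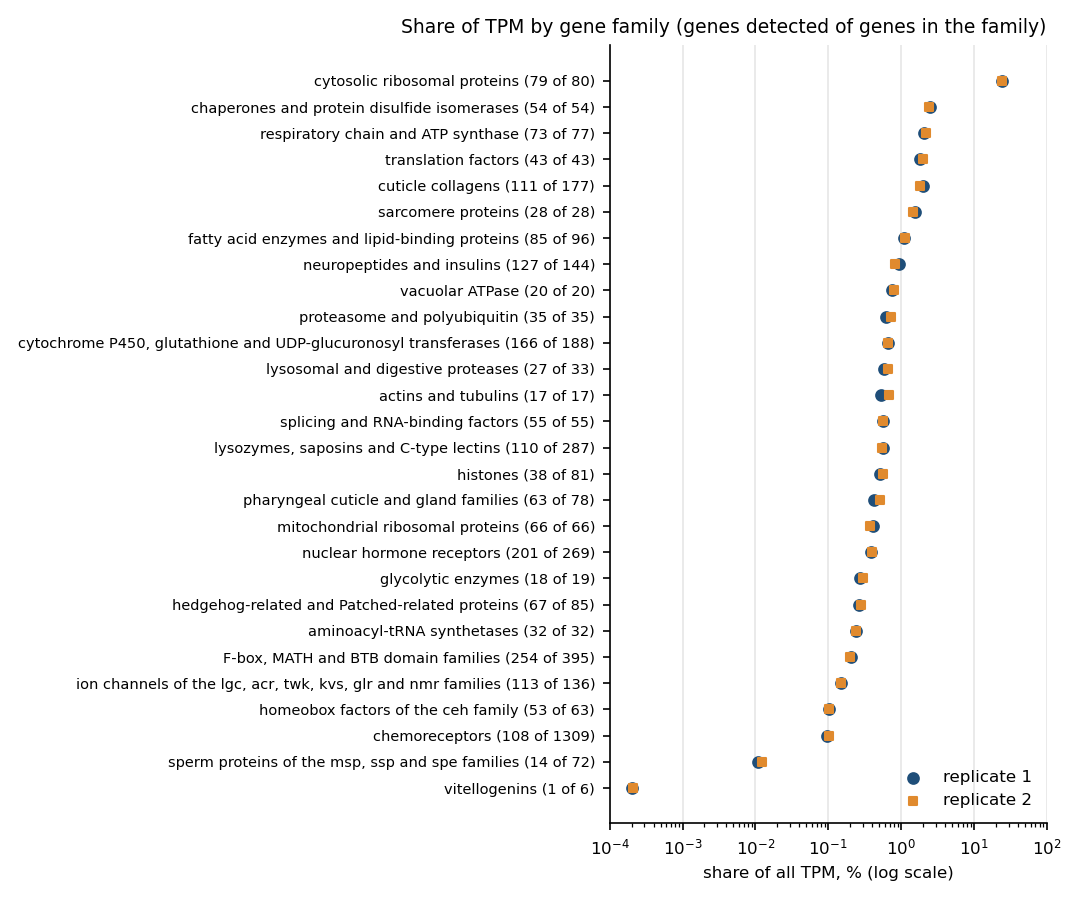
Share of all TPM, in percent on a log axis, of the 28 gene families in replicate 1 (circles) and replicate 2 (squares), with the genes detected of the genes in each family beside its name. Ribosomal proteins stand at 24.1% and vitellogenins at 0.000207%.

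Structural families of the cuticle and of muscle were next. Cuticle collagens, which form the layered exoskeleton, took 1.89% ± 0.115 (SD, n = 2), and 111 of 177 genes were detected. sqt-3 had 2321 and 2198 TPM, dpy-17 1430 and 1431 TPM, and dpy-14 1537 and 1205 TPM, and each of these 3 is needed for normal body shape. The 3 highest genes made up 26.8% of the family, and the median collagen stood at 3.83 TPM. At 0 reads were 3 collagen genes, col-20 and rol-1 among them. Sarcomere proteins took 1.5002% ± 0.0597 through 28 genes, all detected, and the titin gene ttn-1 was lowest at 16.6 and 14.4 TPM. Their highest genes were mlc-2, a myosin light chain, at 2385 and 1934 TPM and pat-10, the body-wall troponin C, at 2066 and 1903 TPM. Actins and tubulins took 0.602% ± 0.106, with act-4 at 1800 and 2338 TPM and act-5, the actin of the gut brush border, at 596 and 729 TPM. The actin genes act-1 to act-4 are close copies, so the division of reads among them is uncertain. Histones took 0.537% ± 0.0350. his-72, which encodes the replacement histone H3.3, led at 963 and 1271 TPM, before the linker histones hil-7 at 837 and 724 TPM and his-24 at 637 and 633 TPM. Of 81 histone genes 38 were detected and 14 had 0 reads, but mRNAs of replication-dependent histones lack a poly(A) tail in animals and many copies are identical, so these low values do not measure histone transcription.

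Families of digestion, defence and signalling held under 1% each. Lysosomal and digestive proteases took 0.629% ± 0.0568 (SD, n = 2) and the lysozymes, saposins and C-type lectins, proteins of digestion and of defence against bacteria, took 0.551% ± 0.0139. The aspartyl protease asp-1 had 2010 and 2527 TPM, and asp-6 had 753 and 840 TPM. Among the saposins, spp-14 had 1416 and 1212 TPM and spp-5 973 and 834 TPM. Only 110 of the 287 genes of the second family were detected, and clec-18 and spp-20 were among its 28 genes with 0 reads. Cytochrome P450, glutathione and UDP-glucuronosyl transferases, which modify foreign compounds, took 0.667% ± 0.00124, and gst-5 led at 1151 and 1240 TPM. Pharyngeal cuticle and gland families took 0.468% ± 0.0590.

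Signalling families stood at modest levels, and their detected shares lay on both sides of the 70.4% of all protein-coding genes. Of 144 neuropeptide and insulin genes 127 (88.2%) were detected, with 0.885% ± 0.0672 of TPM (SD, n = 2). nlp-12 had 510 and 688 TPM, nlp-40, a signal of the defecation rhythm, 383 and 539 TPM, and flp-15 398 and 481 TPM. Insulin-like genes ins-32 and ins-23 had 0 reads. Nuclear hormone receptors, ligand-regulated transcription factors that are far more numerous in nematodes than in mammals, had 201 of 269 genes (74.7%) detected and took 0.389% ± 0.00731. nhr-97 was highest at 142.3 and 156 TPM, and nhr-49, a regulator of fat metabolism, had 120 and 131 TPM. Homeobox factors of the ceh family, with 53 of 63 genes (84.1%) detected, took 0.102% ± 0.000140, led by ceh-20 at 112 and 111 TPM. Hedgehog-related and Patched-related genes took 0.270% ± 0.0116, with grl-4 highest at 355 and 443 TPM. Ion channels of the lgc, acr, twk, kvs, glr and nmr families took 0.149% ± 0.00113, and 113 of 136 (83.1%) were detected. The F-box, MATH and BTB families, thought to pick proteins for degradation, had 254 of 395 genes (64.3%) detected, below the share of all protein-coding genes, and took 0.203% ± 0.00858.

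The chemoreceptors were the largest family and among the least abundant. They are G protein-coupled receptors, many known from sensory neurons, by which the animal smells and tastes. Their 1309 genes together took 0.0996% ± 0.00287 of TPM (SD, n = 2), 108 (8.25%) were detected, and 268 had 0 reads. The median member stood at 0.139 TPM. A few members held much of the sum: srr-4 had 198 and 217 TPM and srt-42 had 116 and 132 TPM, and srv-1 followed at 29.7 and 25.5 TPM. These 3 genes made up 36.02% of the family, and srr-4 alone 20.8%.

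Markers of each of the 14 tissues and cell groups examined were on. Of 158 genes in these tissue lists, 154 (97.5%) were detected, against 70.4% of all protein-coding genes, and none had 0 reads in both libraries. All lists, here and below, were chosen with earlier results of these data known. Their detected shares therefore describe the listed genes and do not measure how often such markers are on. Muscle stood highest. All 15 body-wall muscle genes were detected, with a median of 512 TPM in replicate 1 and 418 in replicate 2. unc-54, the major myosin heavy chain of body-wall muscle, had 783 and 884 TPM, its partner myo-3 320 and 320 TPM, and unc-15, paramyosin, 786 and 954 TPM. The muscle-determining factor hlh-1 had 34.8 and 43.1 TPM. The pharynx, the feeding pump, had all 9 muscle genes on, with medians of 182 and 201 TPM. Its myosins myo-2 and myo-1 had 182 and 205 TPM, and 126 and 129 TPM, and the organ-identity factor pha-4 had 79.0 and 92.6 TPM. The body-wall isoforms unc-54 and myo-3 were above the pharyngeal isoforms in each library. In the list of pharyngeal gland and cuticle 7 of 8 genes were detected: abu-14 had 661 and 874 TPM, phat-5 346 and 480 TPM, and abu-6 only 0.273 and 0.296 TPM.

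All 16 intestinal genes were detected, with medians of 42.4 and 38.4 TPM. After asp-1 and act-5 came ifb-2, an intermediate filament of the gut, at 347 and 358 TPM and vha-6, a proton pump subunit of the gut lumen, at 153 and 164 TPM. The gut GATA factors elt-2 and elt-7 had 22.3 and 21.9 TPM, and 14.6 and 14.2 TPM. The gut esterase ges-1 had 9.64 and 7.75 TPM. fat-7, a fatty acid desaturase, was the lowest at 1.99 and 3.44 TPM. The metallothionein genes, which bind metals, both were on, and mtl-2 was the only member of this list past 2-fold between the libraries, with 33.5 and 15.5 TPM.

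The hypodermis, which secretes the cuticle, and its seam cells had 14 of 14 matched genes on, with medians of 58.04 and 64.4 TPM. elt-5 was not matched. pdi-2 and dpy-18, which together hydroxylate prolines of collagen, had 871 and 959 TPM, and 132 and 136 TPM. dlg-1 and ajm-1, of the apical junction, had 226 and 231 TPM, and 124 and 130 TPM. The furrow collagen dpy-7 had 119.1 and 111 TPM, the epidermal factor lin-26 59.9 and 70.5 TPM, and the lowest member, the molting regulator nhr-23, 16.18 and 17.9 TPM.

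Genes that all neurons use had a median near 100 TPM with a wide range, and the median transmitter identity gene lay lower. The 18 pan-neuronal genes were all on, with medians of 101 and 91.1 TPM. snb-1, synaptobrevin of synaptic vesicles, had 457 and 490 TPM, and sbt-1 and egl-21, which process neuropeptides, had 326 and 351 TPM, and 260 and 315 TPM. The lowest was rgef-1 at 14.3 and 12.9 TPM. Of 15 transmitter identity genes 14 were detected, with medians of 12.8 and 13.5 TPM. For GABA, the transporter snf-11 had 77.7 and 83.2 TPM, and the synthesis enzyme unc-25 66.5 and 71.5 TPM. Acetylcholine genes unc-17 and cha-1 had 26.6 and 32.3 TPM, and 18.8 and 21.2 TPM, the glutamate transporter eat-4 21.9 and 18.9 TPM, and the dopamine transporter dat-1 10.8 and 11.7 TPM. tph-1, for serotonin, had 1.70 and 2.05 TPM. tbh-1, which makes octopamine in a pair of interneurons, straddled the threshold at 0.934 and 1.25 TPM.

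Even genes known from small groups of cells were seen, though RNA of whole larvae does not show which cells their reads came from. All 8 genes in the list of touch receptor neurons, a handful of cells, were on, and some of them may be used by other cells too. The tubulins mec-12 and mec-7 had 222 and 267 TPM, and 219 and 248 TPM. The tubulin acetylase mec-17 had 225 and 192 TPM, and the channel subunit mec-4 had 15.6 and 14.6 TPM. Cilia genes, used by the sensory neurons, were on in 16 of 16 cases with medians of 10.6 and 10.3 TPM. Their transcription factor daf-19 was highest at 40.8 and 45.1 TPM, and the intraflagellar transport genes lay between daf-10 at 6.24 and 4.62 TPM and che-13 at 15.7 and 10.96 TPM. Of 12 sensory transduction genes 10 were detected. tax-6, calcineurin, which many tissues use, had 197 and 208 TPM. The channel subunits tax-2 and tax-4 had 2.66 and 2.62 TPM, and 2.36 and 2.01 TPM. The receptor cyclases gcy-7 at 0.954 and 0.581 TPM and gcy-6 at 0.818 and 0.390 TPM, known from a taste neuron, were under 1 TPM in both libraries. Glia, the excretory system and coelomocytes had all 5, 6 and 3 genes on, led by daf-6 at 16.36 and 16.3 TPM, exc-9 at 84.9 and 106 TPM and cup-4 at 11.08 and 10.1 TPM.

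**Figure D3:**
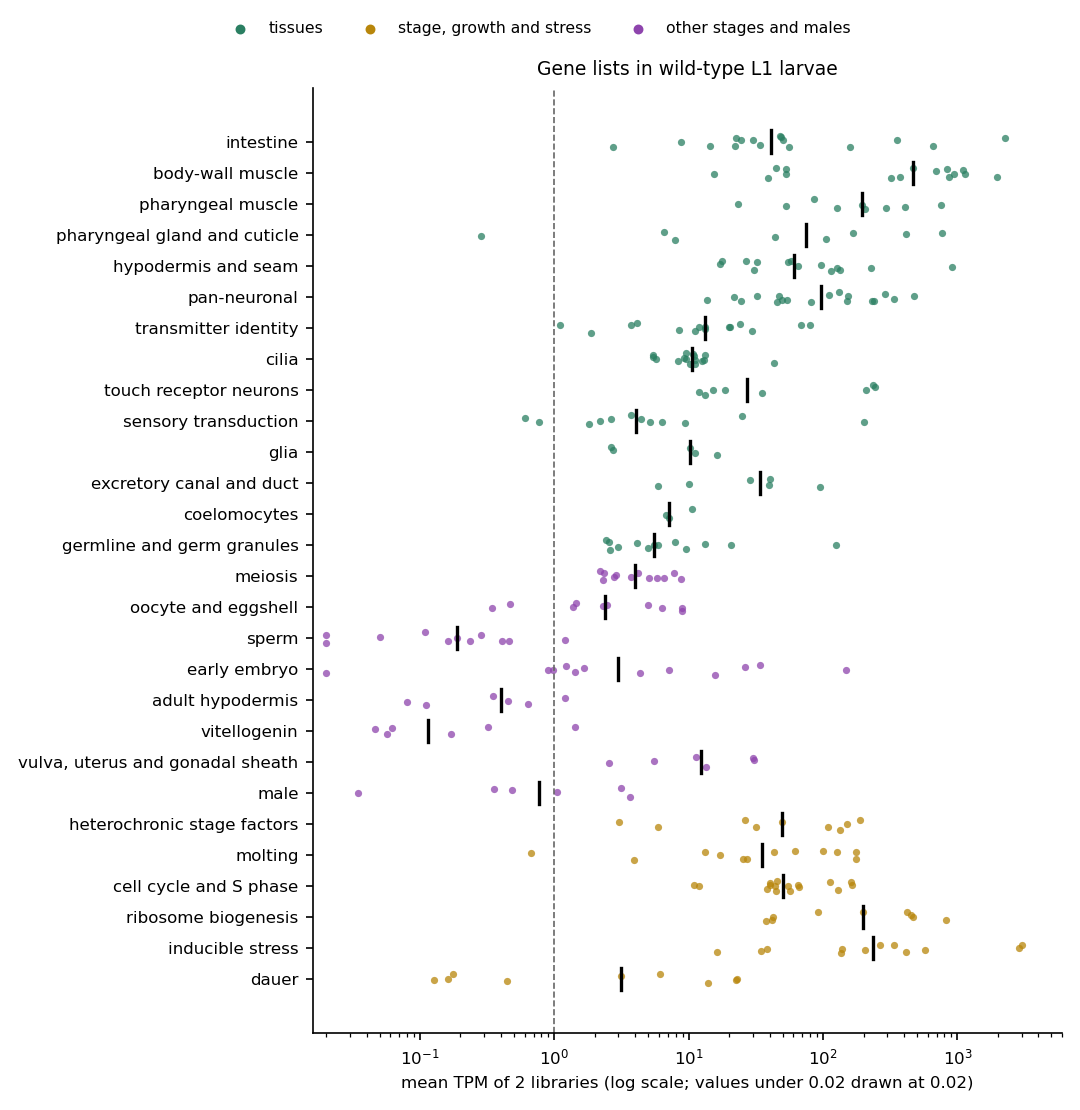
Mean TPM of each gene of the 28 lists on a log axis, grouped by list, where 1 point is 1 gene, the black bar is the list median and the dashed line is 1 TPM. Values under 0.02 TPM are drawn at 0.02. Most genes of the sperm, vitellogenin and adult hypodermis lists lie left of the line, and those of the muscle lists lie right of 10 TPM.

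Germline genes were on at low levels. All 13 germline and germ granule genes were detected, with medians of 5.63 and 5.39 TPM. car-1, which also acts outside the germline, had 116 and 133 TPM. The germ granule helicase glh-1 had 14.8 and 11.6 TPM, the piRNA Argonaute prg-1 19.8 and 21.1 TPM, and glh-2, the lowest, 2.30 and 2.51 TPM. All 12 meiosis genes, some with other roles, were also detected, between rec-8, the meiotic cohesin, at 2.10 and 2.30 TPM and him-8 at 9.61 and 7.83 TPM. The oocyte and eggshell list had 8 of 10 genes on, beside 70.4% of all protein-coding genes. oma-2 and oma-1, RNA-binding proteins of the oocyte, had 7.92 and 9.99 TPM, and 8.32 and 9.51 TPM. The yolk receptor rme-2 had 2.58 and 2.35 TPM, and the eggshell gene perm-4 was lowest at 0.327 and 0.354 TPM.

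Sperm, yolk and adult cuticle genes were off or nearly so. Of 11 sperm genes only spe-9 was detected, at 1.09 and 1.29 TPM, and the list medians were 0.123 and 0.224 TPM. The sperm phosphatase genes gsp-3 and gsp-4 had 0.0481 and 0.0522 TPM, and 0.271 and 0.294 TPM, and the major sperm protein genes msp-142 and msp-77 had 0 reads. The 72 genes of the msp, ssp and spe families took 0.0115% ± 0.000957 of TPM (SD, n = 2), and 18 had 0 reads. That sum came largely from spe-48 at 33.7 and 34.0 TPM, spe-39 at 22.9 and 25.3 TPM and spe-36 at 9.98 and 11.5 TPM, and spe-39 is known from vesicle traffic in other tissues too. The 6 vitellogenins, yolk proteins of the adult gut, took 0.000207% ± 3.76e-06. vit-1 had 1.43 and 1.40 TPM, and the other members were at most 0.352 TPM in either library, down to vit-2 at 0.0216 and 0.0702 TPM. None of 6 adult hypodermis genes was detected. col-19, the adult collagen used as a marker of the adult stage, had 0.0837 and 0.136 TPM, or 4 and 6 reads, and col-63, the highest, 1.49 and 0.901 TPM. Since close copies are undercounted, values of msp and vit genes are lower limits.

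The remaining lists of other stages and of males were mixed. Among all protein-coding genes 70.4% were detected, and the median was 8.24 TPM. Of 12 early embryo genes 9 were detected. skn-1, which also acts in the gut against oxidative stress, had 146 and 150 TPM, and pos-1, a maternal RNA-binding protein, 31.9 and 35.4 TPM. The zygotic endoderm genes end-1 and end-3 had 1.37 and 1.49 TPM, and 0.805 and 0.992 TPM, and med-1 had 0 reads. All 6 genes of vulva, uterus and gonadal sheath were detected, led by lim-7 at 31.5 and 30.1 TPM, with the vulval growth factor egl-17 at 3.08 and 2.06 TPM. Of 6 male genes 2 were detected, ram-5 at 4.12 and 3.22 TPM and the sex-determining her-1 at 2.88 and 3.397 TPM, whereas pkd-2 and lov-1, polycystins of male sensory neurons, had 0.193 and 0.524 TPM, and 0.0487 and 0.0205 TPM. Over the 8 lists of other stages, of gamete formation and of males, 39 of 69 genes (56.5%) were detected, and the median was 1.43 TPM. Both values lay below the 70.4% and 8.24 TPM of all protein-coding genes. The tissue lists had a median of 24.7 TPM.

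All 9 listed heterochronic genes, which give each larval stage its own cell fates, were detected, with medians of 50.4 and 47.8 TPM. lin-14, the factor of L1 fates, had 196 and 183 TPM, and lin-28, an RNA-binding protein of the early stages, had 180 and 122.04 TPM. hbl-1 had 132 and 135 TPM and lin-41, which the let-7 microRNA represses late in development, 50.4 and 47.8 TPM. lin-29, the factor of the adult switch, was lowest at 2.67 and 3.35 TPM. lin-14, lin-28 and hbl-1 thus lay above lin-29 in each library, and their lowest value was 122.04 TPM. Without libraries of another stage, whether this order is particular to L1 was not tested.

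Genes of molting, growth and division were on as well. Of 12 molting genes 11 were detected, with medians of 34.7 and 36.8 TPM. The apical matrix genes noah-2 and noah-1 had 166 and 185 TPM, and 126 and 126 TPM, and mlt-8 had 162 and 189 TPM. nas-37, a protease that acts in shedding the old cuticle, was the only member under the threshold at 0.840 and 0.501 TPM. All 16 cell cycle genes were detected with medians of 48.7 and 53.1 TPM: pcn-1, the clamp of DNA polymerase, had 148 and 182 TPM, cyb-3, a B-type cyclin, 146 and 176 TPM, and rnr-2, of ribonucleotide reductase, 133 and 124 TPM. The cell cycle inhibitor cki-1 had 102 and 125 TPM and cyclin E, cye-1, 10.9 and 11.10 TPM. The ribosome biogenesis list stood higher, with 9 of 9 genes on and medians of 190 and 209 TPM. fib-1, fibrillarin of the nucleolus, had 885 and 763 TPM, nol-56 448 and 492 TPM, nucl-1 499 and 400 TPM, and pro-1 was lowest at 38.4 and 36.4 TPM.

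The dauer list, for the arrested stage of starved or crowded larvae, was mostly low, with 5 of 9 matched genes detected and medians of 3.59 and 2.64 TPM (sodh-1 was not matched). cut-6 had 23.2 and 22.4 TPM, hsp-12.6 28.3 and 16.25 TPM, and daf-7, the TGF-beta ligand that opposes dauer entry, 13.6 and 14.5 TPM. The stress-responsive superoxide dismutase sod-3 had 3.59 and 2.64 TPM. The dauer collagens col-2 and col-40 and the cuticlin cut-1 were each at most 0.264 TPM.

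Stress genes stood out by their level in larvae labelled as untreated. All 12 inducible stress genes were detected, and 9 of them had a mean of at least 100 TPM, in a list also chosen with earlier results known. The small heat shock genes hsp-16.2 and hsp-16.41, whose products hold unfolded proteins and which are widely used as heat reporters, had 3299 and 2756 TPM, and 3150 and 2632 TPM. They rank among the 60 highest genes, between ribosomal protein genes, and they lie next to each other on opposite strands of chromosome V, hsp-16.2 at 1804334 to 1804971 on the minus strand and hsp-16.41 at 1805178 to 1805875 on the plus strand. The related genes hsp-16.1 and hsp-16.48 lie in a second cluster on chromosome V, where the names table gives each symbol to 2 identifiers. For hsp-16.1 they had 186 and 86.8 TPM (WBGene00002015) and 280 and 87.3 TPM (WBGene00002017). For hsp-16.48 they had 274 and 135 TPM (WBGene00002019) and 173 and 104.3 TPM (WBGene00002020). These 4 are near-identical in pairs, so reads that fit both copies were lost and the values are lower limits.

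The other stress genes span several responses. The cytosolic HSP70 genes hsp-70 and F44E5.4 had 346 and 328 TPM, and 361 and 170 TPM. hsp-4, the BiP chaperone of the unfolded protein response in the endoplasmic reticulum, had 563 and 590 TPM. nlp-29, an antimicrobial peptide gene of the epidermis, had 550 and 275 TPM, and gst-4, a reporter of oxidative stress, 149 and 128 TPM. gpdh-1, a reporter of osmotic stress, was lowest at 17.3 and 15.3 TPM, after irg-1 at 41.1 and 35.5 TPM and cyp-35A2 at 36.3 and 32.5 TPM. Chosen after their values were seen, aip-1, which arsenite induces, had 718 and 837 TPM, and zip-2, a factor of the pathogen response, 883 and 1121 TPM. The heat shock factor gene hsf-1, chosen likewise, had 59.4 and 57.6 TPM. Of the 12 listed genes 8 were within 2-fold between the libraries. The other 4, F44E5.4, nlp-29 and the listed identifiers of hsp-16.1 and hsp-16.48, were over 2-fold higher in replicate 1, and the list median was 310 TPM in replicate 1 and 153 TPM in replicate 2. Of these 4, nlp-29, hsp-16.1 and hsp-16.48 are short, with at most 476 bases of exon. Protein-coding genes of at least 50 TPM with 300 to 500 bases had a median log2 ratio of replicate 1 to replicate 2 of 0.23. What these levels follow from was not tested.

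Genes with 0 reads were spread unevenly over families and places. Chemoreceptors supplied 268 of the 1127 protein-coding genes with 0 reads, called silent here,, or 23.8%. Within the chemoreceptors 20.5% had 0 reads, against 4.62% of the other protein-coding genes. By symbol prefix the srw genes had 45 of 109 at 0 reads and the srbc genes 31 of 71, the msp genes 11 of 31 and the nspa genes, of nematode-specific peptides, 7 of 10. Such families hold close copies, and reads that fit several copies were dropped, so 0 reads on a duplicated gene need not mean that it was off. A further 754 silent genes belonged to none of the 28 families. The longest silent gene, ZK228.1, has 2265 bases of exon, so that a count of 0 allows at most 0.0353 TPM in replicate 1 and 0.0383 in replicate 2. Silence in 1 library alone carried little weight: 491 genes were at 0 in replicate 1 only and 694 in replicate 2 only, and in the other library these had a median of 4 reads and at most 36.

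Most silent genes stood alone, with 621 that had no silent neighbour among protein-coding genes. The 3 longest runs held 6 genes each. On chromosome V a run from srz-66 to srh-174, at 17166028 to 17180002, held chemoreceptors only, and another at 18290942 to 18305571 ran from Y51A2A.4 to clec-249, a C-type lectin symbol that 2 of its members carry, so shared reads may have been lost there. The last of them lay on chromosome II at 3148504 to 3159085, from T10D4.11 to sri-34, with 3 chemoreceptors.

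Chromosomes differed in how many of their genes were on. Chromosome III had the largest share of protein-coding genes detected, 83.5%, and a median of 18.7 TPM over all its protein-coding genes, and chromosome V the smallest, 57.3% and 2.58 TPM. Chromosome V holds 890 of the 1309 chemoreceptor genes and 483 of the silent genes. The others lay between, at 78.6% for X, 76.6% for I, 70.6% for II and 67.3% for IV. By share of TPM chromosome I led with 21.3% in each library, and it holds 25 of the 80 ribosomal protein genes, rpl-41.2 being its highest gene. Without the ribosomal protein genes matched by symbol it no longer led. Chromosome I then had 18.1% and 18.2% of protein-coding TPM, V 18.7% and 18.2%, and III 17.8% and 18.2%. With the ribosomal protein genes included, chromosome III had 18.5% and 19.3% of TPM, with 19 of them and eef-1A.1. The highest gene of II was rpl-32, of IV rps-25, of V rpl-38 and of X rpl-11.2.

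The X chromosome, present in a pair in hermaphrodites and as 1 copy in males, held 13.6% of the protein-coding genes. It took 10.9% of TPM in replicate 1 and 11.06% in replicate 2. Only 2 of the ribosomal protein genes matched by symbol lie on it. Leaving out the matched genes from all chromosomes, its share of protein-coding TPM was 13.5% and 13.8%. A detected X gene had a median of 17.9 TPM, above the 14.6 TPM of chromosome V and below the other autosomes, which lay between 19.4 and 25.02 TPM.

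Within chromosomes, genes of the middle were on more often than genes near the ends. Each chromosome was cut by length into 3 equal parts. The middle part had 77.03% of its 7528 protein-coding genes detected and the outer parts together 66.3% of 12361. Without chemoreceptor genes the values were 79.8% and 71.5%, so the gap was narrower. The widest gap was on chromosome V, 69.5% against 50.3%, or 77.1% against 62.6% without chemoreceptors. Chromosome III had the narrowest, 84.1% against 83.2%, but this depended on the division: with outer parts of 20% of the length each it had 85.3% against 79.8%, and X was then the narrowest at 79.3% against 77.4%. Each of the 6 chromosomes had the higher share in its middle part, with or without chemoreceptors, and in each library.

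**Figure D4:**
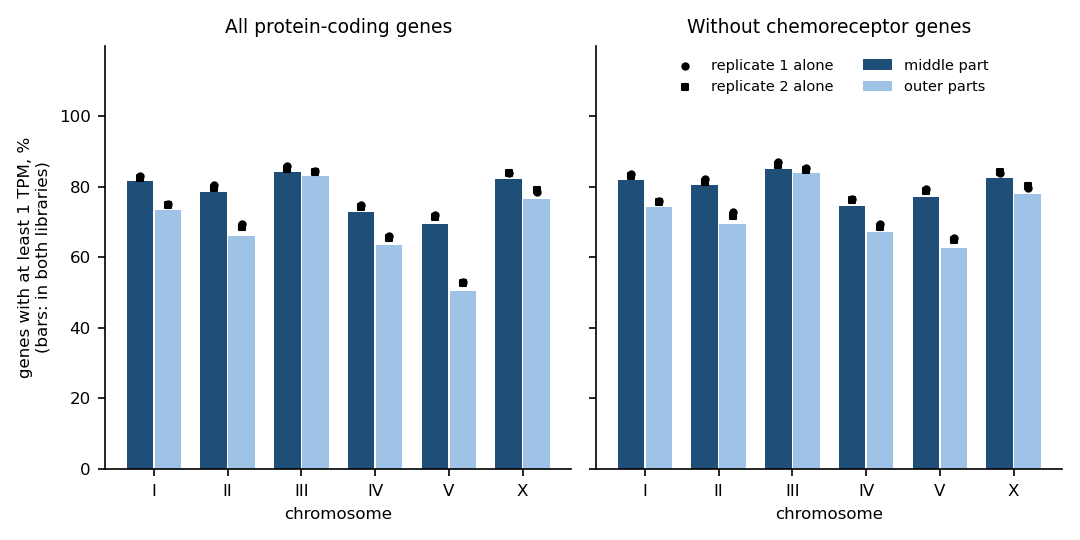
Percent of protein-coding genes with at least 1 TPM in both libraries (bars) and in replicate 1 or replicate 2 alone (points), for the middle part (dark) and the outer parts (light) of each chromosome, with all genes at left and without chemoreceptors at right. Chromosome V has the widest gap, 69.5% against 50.3%, and III the narrowest with this division into 3 equal parts.

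RNA of other gene types was a small part of these poly(A)-selected libraries. Protein-coding genes took 98.1% of reads in replicate 1 and 98.3% in replicate 2, and 97.0% and 97.2% of TPM. Ribosomal RNA still took 0.493% of reads in replicate 1 and 0.313% in replicate 2, almost all on rrn-3.1, the gene of the large subunit RNA, at 1788 and 1171 TPM. Pseudogenes took 0.681% of reads in each library and 431 of 2117 were detected. The highest, WBGene00014309 on chromosome II, had 2013 and 2090 TPM. Among 7759 ncRNA genes 427 were detected, and 223 of these with at least 10 reads in each library. Of the 427, 222 (52.0%) overlap the span of a protein-coding gene, in whole or in part, as do 44.7% of all ncRNA genes. Reads of the protein-coding gene cannot be separated there because strand was not used in counting. The same holds for 7 of the 10 detected antisense RNAs (70%), while 94% of all antisense RNAs overlap a protein-coding gene. tts-2 was the highest ncRNA at 1530 and 1573 TPM and overlaps no protein-coding gene, and F39E9.10 was the highest lincRNA at 62.4 and 52.7 TPM. cel-mir-8199 led the microRNA loci at 103.9 and 77.3 TPM, T25C12.12 the snoRNAs at 750 and 702 TPM, and smy-1 the snRNAs at 11.08 and 13.5 TPM, where it overlaps a protein-coding gene. The highest value at an antisense RNA was that of anr-8, 18.6 and 11.5 TPM, but it overlaps a protein-coding gene, so these reads cannot be given to it. Small RNAs themselves are not captured by this preparation, so reads over such loci need not come from them. The highest tRNA gene, WBGene00023106, had 8.68 and 5.38 TPM and also overlaps one, and the highest gene without a type, WBGene00022383, 169 and 141.98 TPM. The piRNA loci show what length division does at short genes: 472 of 15363 reached 1 TPM in both libraries, but only 39 did so with at least 10 reads in each, since at 21 bases 3 reads already make 3.81 TPM in replicate 1. The highest of them, 21ur-10296, had 461 and 902 TPM and overlaps a protein-coding gene.

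The 2 libraries were alike for most genes and parted mainly at genes with few reads and, among well-read genes, at short ones. Among 18771 genes with at least 10 reads in either library, 2315 (12.3%) differed by more than 2-fold, 1433 (7.63%) higher in replicate 1 and 882 (4.7%) higher in replicate 2. With at least 100 reads in either library 208 of 13080 genes (1.59%) did so, and with at least 500 bases of exon 1403 of 16321 (8.6%). With no minimum of reads, 56.4% of protein-coding genes above 0 and up to 1 TPM were past 2-fold, and between 1 and 10 TPM 7.78%. Between 10 and 100 TPM the share was 0.993%, and above 1000 TPM 2.21%. Among the 3223 protein-coding genes with a mean of at least 50 TPM, 39 were over 2-fold higher in replicate 1 and 1, idpc-7, in replicate 2. Of the 39, 34 had at most 500 bases of exon, and their median length was 322 bases, against 1347 over the 3223.

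Short genes of at least 50 TPM were higher in replicate 1 as a class. Of 26 such genes with up to 300 bases, 24 were higher in replicate 1, and the median log2 ratio of replicate 1 to replicate 2 was 1.03. It was 0.23 between 300 and 500 bases and -0.06 between 1000 and 2000 bases. Ribosomal protein genes followed the same order: the 4 with up to 300 bases were all higher in replicate 1 with a median log2 ratio of 1.504, and the 15 between 750 and 1000 bases were all lower, with a median of -0.19. The share of the whole family barely moved, 24.2% and 24.05%. The ribosomal RNA share of reads was also higher in replicate 1, and its part in the difference was not tested. Levels of genes under about 300 bases of exon, rpl-41.2 among them, therefore rest on 2 libraries that disagree.

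**Figure D5:**
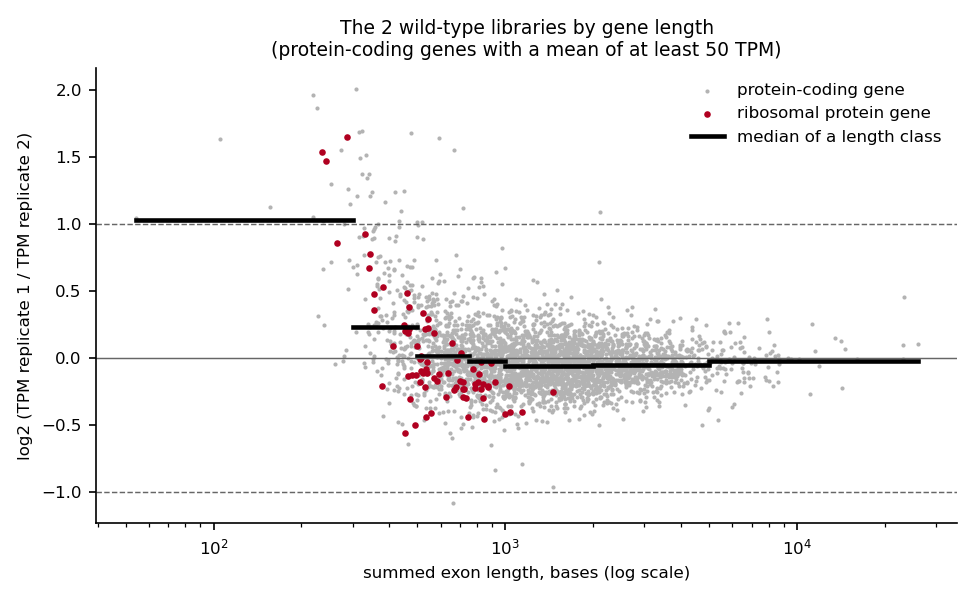
Log2 ratio of TPM in replicate 1 to replicate 2 against summed exon length on a log axis, for the 3223 protein-coding genes with a mean of at least 50 TPM. Black bars are medians of length classes, red points are ribosomal protein genes and dashed lines mark 2-fold, and the median is 1.03 up to 300 bases and -0.06 between 1000 and 2000 bases.

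The genes of at least 50 TPM with the largest gap toward replicate 1 were Y82E9BR.22 at 135 and 33.5 TPM, ostf-4 at 221 and 56.8 TPM, Y39A3CL.3 at 111 and 30.3 TPM, C02E7.6 at 1136 and 352 TPM and cnc-8, of a family of antimicrobial peptides, at 201 and 62.6 TPM. All 5 have at most 324 bases of exon. Toward replicate 2 they were the noncoding RNA rncs-1 at 57.4 and 126 TPM, idpc-7 at 45.3 and 95.9 TPM, 21ur-10296, the actin gene act-1 at 254 and 496 TPM, and pisy-1 at 48.9 and 87.1 TPM. Among the families, 13 of 134 neuropeptide and insulin genes with at least 10 reads were over 2-fold higher in replicate 1 and none in replicate 2. Over all genes the shares were 7.63% and 4.7%, so the count toward replicate 1 lay near that of all genes. Of 585 chemoreceptor genes with at least 10 reads, 117 were over 2-fold higher in replicate 1 and 114 in replicate 2. In the body-wall muscle, pharyngeal muscle, hypodermis and pan-neuronal lists no gene was past 2-fold, as in most other tissue lists. All their genes had a mean of at least 10 TPM, a level at which few protein-coding genes were past 2-fold. The shares were 0.993% between 10 and 100 TPM, 1.38% between 100 and 1000 TPM and 2.21% above 1000 TPM.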

How the data were processed

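RNA of untreated N2 L1 larvae was sequenced in 2 libraries. The authors aligned paired reads with STAR, kept proper pairs with a mapping quality of at least 30, removed mitochondrial reads and counted reads on exons with featureCounts 2.0.4. The deposited values are raw counts of reads per gene, and each table gives the summed exon length of a gene. The file headers name an Ensembl 105 annotation of WBcel235, and the methods WS295. Both mates were counted and strand was not used. TPM were computed per library from counts and exon length. The names table matched 44017 of 46904 identifiers, and Ensembl 115 gave 46817 a gene type. Families were taken by symbol, the first match counting. Named were the 30 highest genes, list members, the 3 highest, the lowest and silent members of each family, the 5 highest sequence-named genes, the longest silent runs, the 5 largest library differences each way, and the highest gene of each type and chromosome. The members and lists were chosen with earlier results of these data known. The TPM code was tested on simulated data with 200 changed genes. Alternatives were CPM, other lengths, gene sets and thresholds, and each library alone. Planned promoter motifs were not analysed here, and the mutant libraries were not used here. Python 3.11.15, numpy 2.4.6, pandas 2.3.3 and matplotlib 3.10.9 were used.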

Additional observations from a re-analysis of the deposited data

How the results depend on the processing

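Dividing by gene length set the size of several shares. With CPM, that is read shares with no division by length, the ribosomal protein share of 24.1% became 11.3%, the share of the 100 highest genes went from 31.3% to 19.9%, the collagen share from 1.89% to 1.56% and the X share from 10.96% to 13.5%. With gene length from start to end they were 26.9%, 35.6%, 2.43% and 10.5%. Over protein-coding genes only, the ribosomal protein share was 24.9%, the top 100 share 32.2% and the X share 10.8%. Counting ribosomal protein symbols that end in a letter, chosen after seeing the data, gave 24.7%. Under 10 reads in both libraries there were 3037 protein-coding genes in place of 1127 with 0 reads, and each library alone gave 1618 to 1821. Past 2-fold between the libraries were 208 of 13080 genes (1.59%) with at least 100 reads, against 2315 of 18771 (12.3%) with at least 10. Chosen after seeing the data, a minimum of 500 bases of exon gave 1403 of 16321 (8.6%). With outer parts of 20% of the length each, 64.9% of outer genes were detected, against 66.3%, and the narrowest gap moved from chromosome III to X. Summed counts left all 4 shares within 1 SD, each library alone gave 24.05% to 24.2%, 31.1% to 31.4%, 1.81% to 1.97% and 10.9% to 11.06%, and the number of detected genes lay between 11363 with 5 TPM and 17090 with replicate 1 alone. No paired analysis was possible because only wild-type libraries were used and no result comes from a test. Levels of genes with near-identical copies and of genes under 300 bases are limited by mapping and by the gap between the libraries.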
